A study of Mus musculus with 11 samples.

Results

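Expression of 10 genes that supply sialic acid and attach it to sugars was examined in whole inguinal mammary glands of mice. The genes were taken by name: Gne, Cmas and Slc35a1, which make and deliver the activated sugar, and the sialyltransferases St6gal1, St3gal1, St3gal2, St3gal3, St3gal4, St3gal5 and St3gal6. They are 10 of the 22196 genes with an identifier in the deposited transcript tables, and all 10 passed the filter on low counts that left 12716 genes for testing. RNA was sequenced from 6 libraries titled Knockout, of genotype Tsc1-fl/fl; Adipoq-Cre-Tg/+, and from 5 titled Wild-Type, of genotype Tsc1-fl/fl; Adipoq-Cre-+/+. Both groups therefore carried the floxed Tsc1 allele, and the Wild-Type animals lacked only the Cre transgene. Per the labels, the animals ate normal chow, the glands were collected 16 days after delivery, and the age entry of every library reads PND16.5. The Adipoq promoter drives Cre in adipocytes, so the epithelial cells that make milk, and the other cells of the gland, were not targets of the deletion. The comparison asks whether loss of Tsc1 from fat cells was accompanied by a different level of these transcripts in the gland as a whole. In such bulk RNA, fewer cells of a type and less RNA per cell cannot be told apart. The labels do not say that each library came from a separate animal, so p-values measure only the spread between these libraries.

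Sialic acid is a negatively charged sugar that caps glycoproteins, glycolipids and, in milk, lactose. Gne carries out the committed steps from UDP-GlcNAc towards sialic acid, Cmas joins the finished sugar to CMP in the nucleus, and Slc35a1 carries CMP-sialic acid into the Golgi. There the sialyltransferases move it onto galactose: the St6gal1 enzyme makes the alpha-2,6 linkage, found in 6'-sialyllactose, and the St3gal enzymes make the alpha-2,3 linkage, found in 3'-sialyllactose, a main sialylated sugar of mouse milk.

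The libraries held between 25817975 and 37894237 estimated reads. The 8 milk protein genes counted, among them Csn2 and Wap, took 56.2% ± 3.36 of the reads of the 6 Knockout and 59.4% ± 2.59 of those of the 5 Wild-Type libraries (mean ± SD), and all 7 markers of secretory epithelium were detected. After TMM scaling all 8 milk protein genes had a lower fitted level in Knockout, with a median log2 fold change of -0.27, 0 called by edgeR and 0 with an unadjusted p under 0.05. For this and the marker counts below, the shares over all genes tested were 0.055% called and 12.4% with an unadjusted p under 0.05. Their summed level was 533400 ± 75410 CPM over the 6 Knockout and 643600 ± 86210 CPM over the 5 Wild-Type libraries (mean ± SD; CPM are reads scaled to a common library size). The 7 secretory markers summed to 228400 ± 32720 and 278300 ± 40600 CPM, with 3 higher and 4 lower. Of these, 0 were called by edgeR and 1 had an unadjusted p under 0.05. Csn2, Wap and Lalba stand in both lists, so this sum is not independent of the milk protein sum. Since all milk protein genes were lower, the 3 higher were among Elf5, Krt8, Krt18 and Epcam. All 5 myoepithelial markers had a higher fitted level in Knockout, with 0 called by edgeR and 1 with an unadjusted p under 0.05. They summed to between 453.7 and 631.5 CPM in Knockout and between 363.2 and 656.2 CPM in Wild-Type, ranges that overlap. Tsc1 itself, which encodes a subunit of the complex that restrains mTORC1, had a mean of 10.1 ± 1.33 CPM (SD, n = 6) among Knockout libraries, against 10.7 ± 1.11 (SD, n = 5) among Wild-Type libraries, so that whole-gland RNA does not separate the groups at the targeted gene. The summed level of 7 adipocyte markers was between 311.1 and 418.0 CPM in Knockout and between 260.7 and 312.3 CPM in Wild-Type, with 6 of 7 higher in Knockout, 4 of 7 with an unadjusted p under 0.05 and 0 called by edgeR. The summed level of 7 B cell markers was between 0.991 and 14.7 CPM in Knockout and between 2.21 and 80.1 CPM in Wild-Type, and all 5 that could be tested were lower in Knockout, each with an unadjusted p under 0.05 and 0 called by edgeR. Wild-Type 5, at 80.1 CPM, and Wild-Type 2, at 58.3 CPM, had the highest sums of B cell markers. The same libraries were highest for 5 T cell markers, at 23.9 and 14.7 CPM, and for 4 lymph node stroma markers, at 24.2 and 17.8 CPM. No Knockout library exceeded 6.62 CPM for T cell or 4.11 CPM for lymph node stroma markers. All 5 fibroblast markers had a higher fitted level in Knockout, where they summed to between 221.1 and 524.2 CPM, against 163.7 to 372.9 CPM in Wild-Type. The fibroblast ranges overlap, and of the 5 markers 0 were called by edgeR and 2 had an unadjusted p under 0.05. Markers of skeletal muscle summed to 1986 CPM in Knockout 1 and to at most 167.4 CPM in any other library. The part of these cell types in the values below was not tested, except by leaving libraries out.

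Stretches of 3 coding sequences are shown because the reads of Gne, St3gal5 and St3gal6 were divided among transcripts that contain one another. The first 2 are the coding bases at the start of the long transcripts of Gne and St3gal5, which the short transcripts of these genes lack. The last is the whole listed sequence of a very short transcript of St3gal6, all of which a longer transcript of the gene holds too. Each is from GENCODE M21 transcripts on GRCm38, written 5′ to 3′ on the gene's own strand, with the start codon in capitals.
Gne, start of the long transcript: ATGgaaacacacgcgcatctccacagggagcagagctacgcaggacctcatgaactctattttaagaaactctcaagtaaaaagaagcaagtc
St3gal5, start of the long transcript: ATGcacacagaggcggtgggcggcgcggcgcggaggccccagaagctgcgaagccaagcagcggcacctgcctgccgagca
St3gal6, very short transcript: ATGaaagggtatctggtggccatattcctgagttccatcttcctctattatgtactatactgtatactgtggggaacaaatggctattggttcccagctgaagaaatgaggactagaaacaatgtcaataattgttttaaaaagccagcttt

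The Gne stretch of 93 bases lies on the minus strand, at chr4:44084048-44084098 in exon 1 and chr4:44066919-44066960 in exon 2. The St3gal5 stretch of 81 bases lies on the plus strand, at chr6:72097704-72097782 in exon 1 and chr6:72128264-72128265 in exon 2. The St3gal6 sequence of 152 bases lies on the minus strand, at chr16:58493680-58493768 in exon 3 and chr16:58488919-58488981 in exon 4. It forms the start of the 990-base transcript that held most of the reads of the gene.

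None of the 10 genes passed the test for a difference between genotypes. With edgeR's quasi-likelihood test, 0 of 10 had a Benjamini-Hochberg adjusted p under 0.05, against 7 of the 12716 genes tested (0.055%), and 0 of 10 had an unadjusted p under 0.05, against 12.4% of all genes tested. DESeq2 called 0 of the 10, against 1.09% of the genes it tested, and limma-voom called 0 of the 10, against 0.0472% of the genes tested. For every one of the 10 the ranges of the Knockout and Wild-Type libraries overlapped, while 1.32% of all genes tested had ranges that did not. The fitted level was higher in Knockout for 5 of the 10 and lower for 5, and the median log2 fold change was 0.01, beside -0.01 over all genes tested. What follows gives each gene's values with the 95% interval of its fold difference by edgeR.

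**Figure D1:**
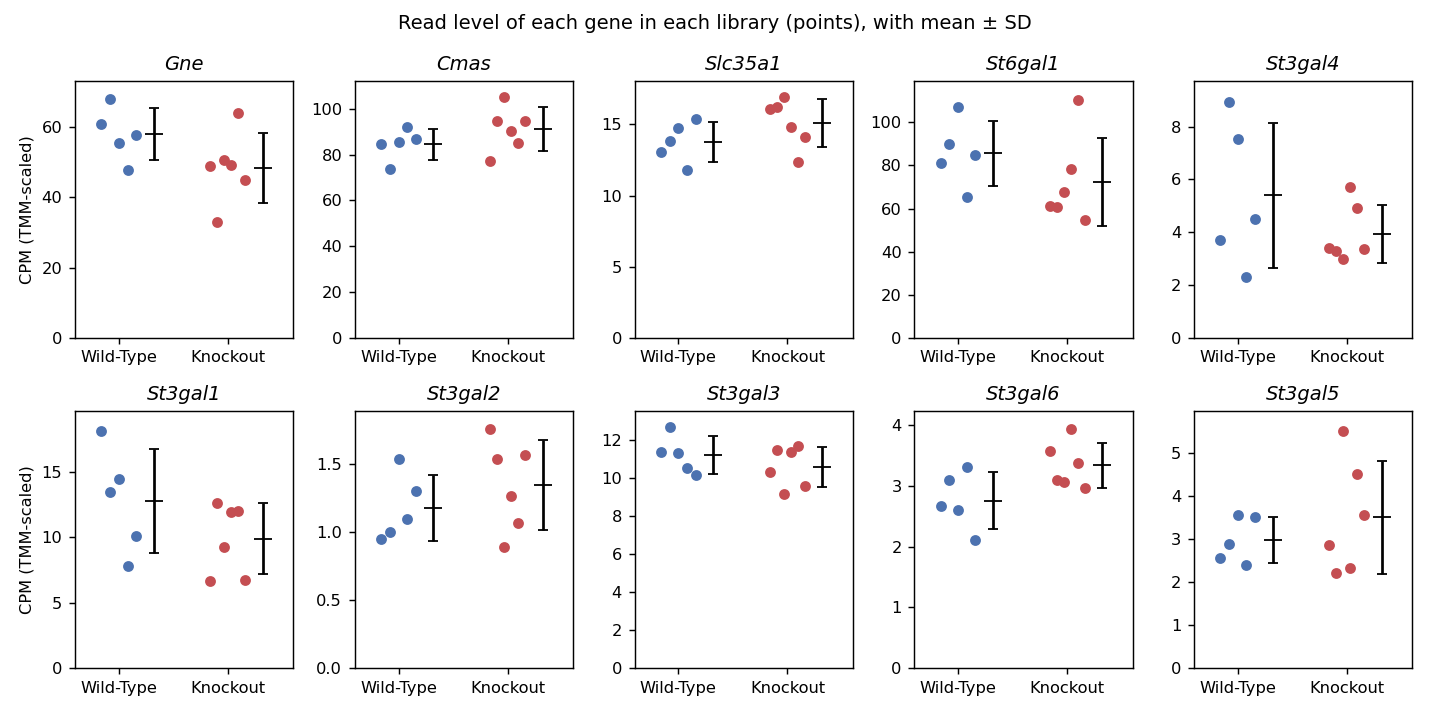
Level of each of the 10 genes, in CPM after TMM scaling, with Wild-Type in blue and Knockout in red. Each point is a library, and the black mark with its error line beside the points is the group mean ± SD (n = 5 and n = 6); in every panel the points of the 2 groups overlap.

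Among the supply genes, Gne (ENSMUSG00000028479, minus strand of chr4:44034075-44084177) was at 48.9, 33.0, 50.5, 49.1, 64.1 and 44.9 CPM in Knockout 1 to 6. In Wild-Type 1 to 5 it was at 60.9, 67.9, 55.4, 47.8 and 57.8 CPM. The lowest value was in Knockout 2 and the highest in Wild-Type 2, but Knockout 5 exceeded 4 of the 5 Wild-Type libraries. The means were 48.4 ± 10.03 CPM (SD, n = 6) and 58.0 ± 7.37 (SD, n = 5), which gave a log2 fold change of -0.26 (SE 0.14, adjusted p = 0.480 by edgeR). The 95% interval ran from 0.676-fold to 1.03-fold of the Wild-Type level. A level about equal to that of Wild-Type and one well below it both lie inside this interval.

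Cmas (ENSMUSG00000030282, plus strand of chr6:142756686-142775714), which activates sialic acid, was at 77.3, 94.7, 105.3, 90.3, 85.2 and 94.8 CPM in Knockout 1 to 6 and at 84.7, 73.7, 85.5, 92.1 and 86.8 CPM in Wild-Type 1 to 5. Its level varied little within either group, and Knockout 1 and Wild-Type 2 were the low libraries. The log2 fold change was 0.11 (SE 0.09, adjusted p = 0.624 by edgeR), with an interval of 0.949-fold to 1.23-fold. It was 0.063 without Wild-Type 2, 0.065 without Knockout 3 and 0.060 without Wild-Type 2 and Wild-Type 5 together, and 0.20 with length offsets and 0.21 on the authors' deposited values. With transcripts under 300 bases left out of the lengths it was 0.11, as from counts alone. Slc35a1 (ENSMUSG00000028293, minus strand of chr4:34663257-34687438), the Golgi transporter, was at 16.1, 16.2, 16.9, 14.9, 12.4 and 14.1 CPM in Knockout and at 13.1, 13.8, 14.8, 11.8 and 15.4 CPM in Wild-Type. Knockout 5 lay near the bottom of the Wild-Type range, and the other Knockout libraries lay within or above it. Its log2 fold change was 0.13 (SE 0.10, adjusted p = 0.593 by edgeR), with an interval of 0.949-fold to 1.27-fold.

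St6gal1 (ENSMUSG00000022885, plus strand of chr16:23224740-23360350), the alpha-2,6 sialyltransferase, was at 61.2, 60.6, 67.9, 78.1, 110.6 and 54.8 CPM in Knockout 1 to 6. In Wild-Type 1 to 5 it was at 81.1, 89.9, 107.3, 65.5 and 85.1 CPM. A single Knockout library, number 5, held the highest value of all 11, and the other 5 Knockout libraries lay below 4 of the 5 Wild-Type libraries. The means were 72.2 ± 20.4 CPM (SD, n = 6) and 85.8 ± 15.1 (SD, n = 5), which gave a log2 fold change of -0.25 (SE 0.18, adjusted p = 0.593 by edgeR) with an interval of 0.644-fold to 1.10-fold. B cells also express this gene. With Wild-Type 2 and Wild-Type 5 left out, the libraries highest in B cell markers, the log2 fold change was -0.23. It was -0.41 without Knockout 5 and -0.16 without Wild-Type 3. RefSeq gives St6gal1 transcripts that begin at 3 places on chromosome 16 of GRCm38.p6, at bases 23224740, 23226021 and 23290470. The listed transcripts held coding sequence only, and a single St6gal1 transcript had reads, so the use of these start sites was not measured.

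Of the alpha-2,3 enzymes, St3gal4 (ENSMUSG00000032038, minus strand of chr9:35046576-35119268) acts on N-glycans, glycolipids and lactose. It was at 3.42, 3.27, 2.97, 5.71, 4.92 and 3.36 CPM in Knockout 1 to 6 and at 3.71, 8.94, 7.54, 2.31 and 4.49 CPM in Wild-Type 1 to 5. The Wild-Type libraries held both the highest value, in number 2, and the lowest, in number 4, and their standard deviation was 51.0% of their mean. The means were 3.94 ± 1.10 CPM (SD, n = 6) and 5.40 ± 2.75 (SD, n = 5), and the log2 fold change was -0.45 (SE 0.32, adjusted p = 0.586 by edgeR). Its interval, 0.453-fold to 1.18-fold, was the widest of the 10 on the log2 scale. The log2 fold change was -0.20 without Wild-Type 2 and -0.64 without Wild-Type 4. Without Wild-Type 2 and Wild-Type 5, the libraries highest in B cell markers, it was -0.20. The coding part of St3gal4 overlaps an exon of 4930581F22Rik on the other strand, so its counts are uncertain if strand was not used in counting.

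St3gal1 and St3gal2 sialylate the galactose of O-glycans, and St3gal2 also that of gangliosides. St3gal1 (ENSMUSG00000013846, minus strand of chr15:67102875-67176830) was at 6.66, 12.6, 9.28, 11.9, 12.0 and 6.74 CPM in Knockout and at 18.1, 13.5, 14.5, 7.81 and 10.1 CPM in Wild-Type. Wild-Type 1, 2 and 3 lay above all Knockout libraries and Wild-Type 4 lay among the lowest. The log2 fold change was -0.37 (SE 0.24, adjusted p = 0.541 by edgeR), with an interval of 0.539-fold to 1.10-fold, and it was -0.21 without Wild-Type 1. St3gal2 (ENSMUSG00000031749, plus strand of chr8:110919922-110972480) was the most thinly covered, with between 24 and 79 reads per library, and was at 1.35 ± 0.329 CPM in Knockout (SD, n = 6) against 1.18 ± 0.243 in Wild-Type (SD, n = 5). Its log2 fold change was 0.20 (SE 0.21, adjusted p = 0.740 by edgeR), with an interval of 0.834-fold to 1.57-fold.

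St3gal3 and St3gal6 sialylate the galactose ends of N-glycans, and St3gal5 is GM3 synthase, which makes the first ganglioside from lactosylceramide. St3gal3 (ENSMUSG00000028538, minus strand of chr4:117932154-118134914) was the steadiest of these, at 10.6 ± 1.07 CPM in Knockout (SD, n = 6) against 11.2 ± 0.976 in Wild-Type (SD, n = 5). Its log2 fold change was -0.08 (SE 0.09, adjusted p = 0.745 by edgeR), with an interval of 0.825-fold to 1.08-fold. St3gal5 (ENSMUSG00000056091, plus strand of chr6:72097592-72154571) was at 2.87, 2.22, 5.52, 2.32, 4.52 and 3.56 CPM in Knockout and at 2.56, 2.88, 3.55, 2.40 and 3.51 CPM in Wild-Type. The Knockout libraries held both the lowest and the highest value, and their spread, 37.4% of the mean, was wider than that of Wild-Type. The log2 fold change was 0.23 (SE 0.24, adjusted p = 0.728 by edgeR), with an interval of 0.820-fold to 1.67-fold, and it was 0.05 without Knockout 3.

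**Figure D2:**
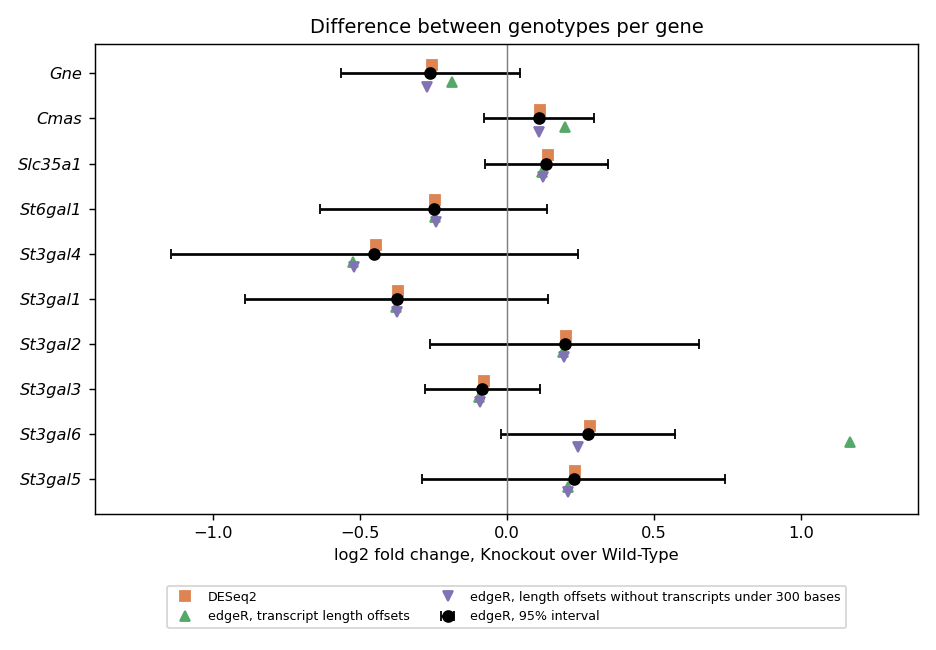
Log2 fold change of Knockout over Wild-Type for each of the 10 genes. Black points with bars are the edgeR estimates with 95% intervals, squares are DESeq2 and triangles are edgeR with transcript length offsets, with and without transcripts under 300 bases. Every interval crosses 0, and St3gal6 is the gene whose estimate moves most with the length offsets, from 0.28 to 1.17.

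St3gal6 (ENSMUSG00000022747, minus strand of chr16:58468125-58524243) had the smallest p of the 10, and its value depended most on how transcript length was treated. By reads it was at 3.58, 3.10, 3.07, 3.94, 3.38 and 2.96 CPM in Knockout 1 to 6 and at 2.66, 3.09, 2.61, 3.31 and 2.11 CPM in Wild-Type 1 to 5. Only Wild-Type 2 and Wild-Type 4 reached the Knockout range, and Knockout was the higher library in 25 of the 30 pairs of a Knockout with a Wild-Type library. The log2 fold change was 0.28 (SE 0.14, adjusted p = 0.432 by edgeR), with an interval of 0.988-fold to 1.49-fold.

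The authors' deposited normalized values for the same gene were 139.1, 111.8, 112.7, 173.5, 122.1 and 271.6 in Knockout 1 to 6 and 40.3, 209.9, 38.5, 50.4 and 31.6 in Wild-Type 1 to 5. On these values every Knockout library lay above 4 of the 5 Wild-Type libraries, and Wild-Type 2 lay above 5 of the 6 Knockout libraries. The log2 fold change on the scale of log2(value + 1) was 1.39 (SE 0.44, adjusted p = 0.365 by limma-trend). With average transcript lengths as offsets to the counts it was 1.17 (edgeR adjusted p = 0.418). Both of these had an unadjusted p under 0.05. With transcripts under 300 bases left out of those lengths it was 0.24 (edgeR adjusted p = 0.529), close to the 0.28 from counts alone.

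The listed effective length, the number of positions at which a fragment could start, was 4 bases for the transcript of 152 bases shown above and for another of 139 bases, and between 523.5 and 564.3 bases for the transcript of 990 bases. The very short transcripts together were assigned 1.99, 0.995, 0.999, 1.91, 0.994 and 4.00 reads in Knockout 1 to 6. In Wild-Type they were assigned 2.00 reads in number 2 and 0 in the other 4 libraries. These few reads made 62.5% of the TPM (a level per transcript length) of St3gal6 summed over all 11 libraries. The gene's TPM was 7.23 ± 2.87 over the Knockout libraries (SD, n = 6), against 2.94 ± 2.95 over the Wild-Type libraries (SD, n = 5). The TPM of the 990-base transcript alone was 2.25 ± 0.375 and 1.65 ± 0.447. Thus the libraries with a high normalized value were those in which at least 1 read, within rounding, had been given to a transcript of 4 effective bases.

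**Figure D3:**
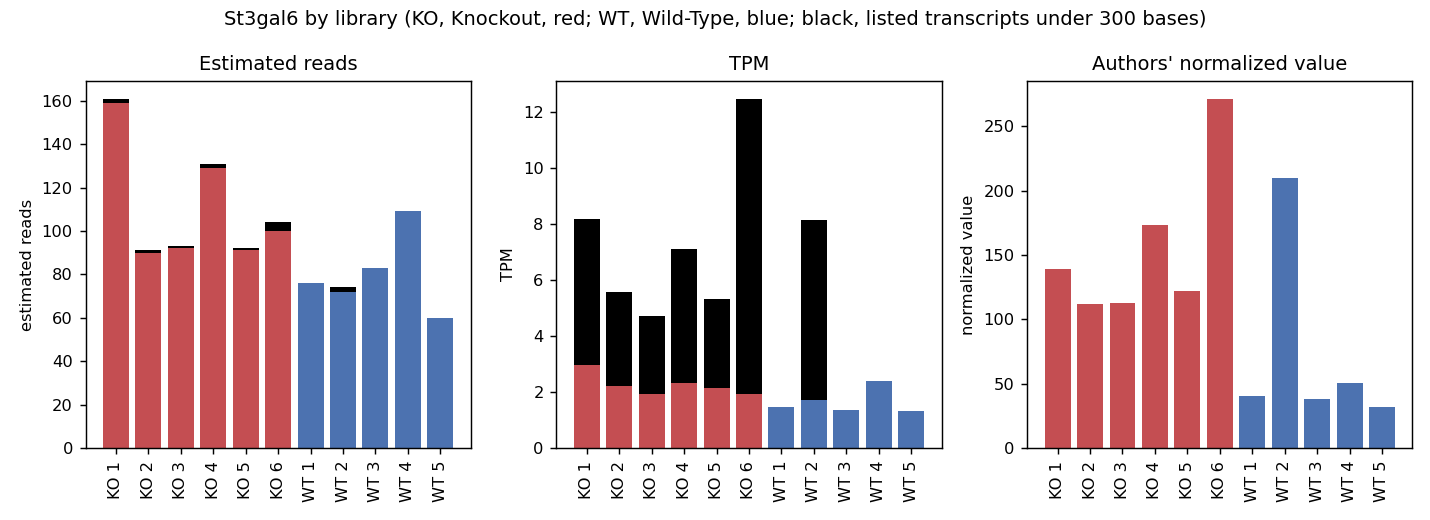
St3gal6 in each of the 11 libraries by estimated reads (left), TPM (middle) and the authors' deposited normalized value (right), Knockout (KO) in red, Wild-Type (WT) in blue and the transcripts under 300 bases in black. The black parts are at most 4.00 reads on the left and up to 10.6 TPM in the middle, and the 7 libraries that have them are the 7 with normalized values of 111.8 or more, while the other 4 are at 50.4 or less.

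Gne and St3gal5 each had a transcript nested inside a longer one. The short Gne transcript has 2169 coding bases, all of them within the 2262 of the long one, and likewise the 1164 of the short St3gal5 transcript lie within the 1245 of the long one. Only reads that touch the 93 bases shown above, or the 81 bases shown for St3gal5, tell the transcripts apart. The long Gne transcript was assigned 98.4, 80.6, 98.8, 98.5, 98.9 and 55.6% of the reads of Gne in Knockout 1 to 6 and 98.7, 68.8, 94.8, 73.1 and 66.5% in Wild-Type 1 to 5. Low shares occurred in both groups. The long St3gal5 transcript was assigned 64.1, 10.3, 66.5, 100, 66.2 and 100% in Knockout and 48.8, 100, 95.1, 8.23 and 44.3% in Wild-Type. Each group held a library near 10% and at least 1 at 100%, which for a gene with 65 to 167 reads per library rests on few reads.

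Shares of the leading transcript were compared for the 7 genes with reads on more than 1 transcript. By exact two-sided permutation tests 0 of 7 passed, 0 had an unadjusted p under 0.05, and adjusted p-values lay between 0.739 and 0.913. The difference was 8.07 percentage points for Gne (exact permutation p = 0.422, adjusted p = 0.739) and 8.57 for St3gal5 (exact permutation p = 0.684, adjusted p = 0.913), both higher in Knockout. St3gal6 differed by -1.09 points (exact permutation p = 0.214, adjusted p = 0.739). Without Wild-Type 2 it differed by -1.63 points and passed (exact permutation p = 0.00476, adjusted p = 0.0333), on the same few short-transcript reads. St3gal1, St3gal2 and St6gal1 had reads on 1 transcript each.

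**Figure D4:**
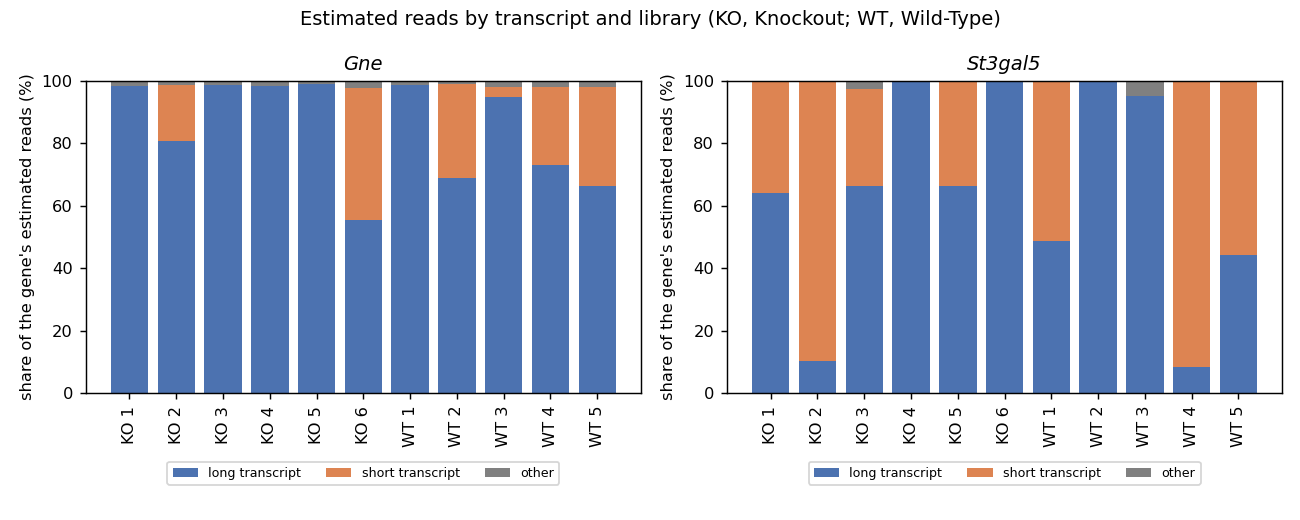
Share of the estimated reads of Gne (left) and St3gal5 (right) assigned to each transcript, in percent, for Knockout (KO) 1 to 6 and Wild-Type (WT) 1 to 5. The long one ranges from 55.6 to 98.9% for Gne and from 8.23 to 100% for St3gal5, with high and low shares in both groups.

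Levels of the 10 genes were ordered per length, by TPM over the 11 libraries. Cmas was highest at 37.4 ± 8.85 TPM (SD, n = 11), above 93.1% of the genes tested, and St6gal1 followed at 29.0 ± 5.39, above 91.1%. Gne was at 11.4 ± 2.32 and Slc35a1 at 8.45 ± 1.78. The alpha-2,3 enzymes were all lower: St3gal6 was at 5.28 ± 3.55, St3gal1 at 5.24 ± 1.22, St3gal3 at 4.72 ± 0.696, St3gal4 at 3.08 ± 1.12, St3gal5 at 1.29 ± 0.410 and St3gal2 at 0.592 ± 0.211. St6gal1 was therefore the leading sialyltransferase of the 7. The order pools the genotypes, and St3gal6 stood differently in them. It was at 7.23 TPM in Knockout, first of the alpha-2,3 enzymes, but at 2.94 TPM in Wild-Type, below St3gal1 at 5.49, St3gal3 at 4.46 and St3gal4 at 3.39.

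Of the 9 steps between neighbours in this order, 7 differed by exact two-sided sign-flip permutation tests over the 11 libraries, adjusted over the 9. The first step, from Cmas to St6gal1, was 0.35 ± 0.44 on the log2 scale (SD, n = 11; higher in 9 of 11 libraries, exact permutation adjusted p = 0.0389). It was wider in Knockout, with Cmas at 42.4 and St6gal1 at 28.9 TPM, than in Wild-Type, at 31.3 and 29.1 TPM, and this difference in step was not tested. The step from St6gal1 to Gne was 1.35 ± 0.29 (SD, n = 11; higher in 11 of 11, exact permutation adjusted p = 0.00440). St3gal6 and St3gal1 were not separated (exact permutation adjusted p = 0.436), nor were St3gal1 and St3gal3 (exact permutation adjusted p = 0.311). When only the leading transcript of each gene was counted, 4 of the 9 steps in the new order differed. St3gal6 then stood at 1.98 TPM beside St3gal4 at 1.91, Gne at 7.85 stood beside Slc35a1 at 8.30, and the step from Cmas at 33.5 to St6gal1 at 29.0 no longer passed (exact permutation adjusted p = 0.198).

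**Figure D5:**
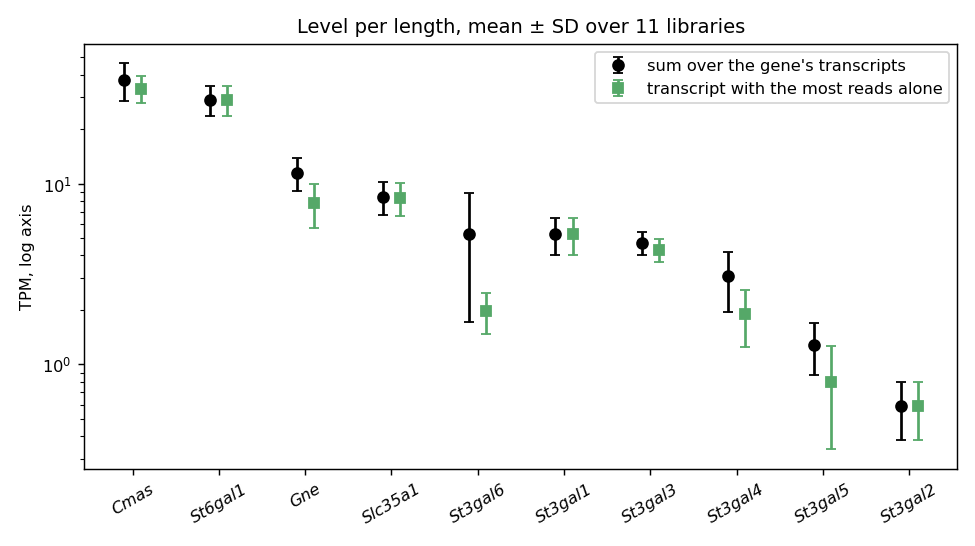
Level per length of each of the 10 genes, in TPM on a log axis, as the mean ± SD over 11 libraries, for the sum over a gene's transcripts (black circles) and for the transcript with the most reads alone (green squares). Cmas and St6gal1 lie at the top and St3gal2 at the bottom of the summed values, and the 2 measures lie farthest apart for St3gal6, at 5.28 and 1.98 TPM.

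The ratio of St6gal1 to St3gal4 sets the alpha-2,6 enzyme beside the alpha-2,3 enzyme that can act on lactose. In TPM it was 11.3, 9.20, 12.7, 7.06, 13.7 and 9.34 in Knockout 1 to 6 and 12.3, 5.58, 7.23, 14.3 and 9.78 in Wild-Type 1 to 5. Wild-Type held both extremes. The log2 ratio was 3.36 ± 0.35 in Knockout (SD, n = 6) against 3.22 ± 0.55 in Wild-Type (SD, n = 5), a difference of 0.15 (exact two-sided permutation p = 0.608 over 462 splits). From read counts the difference was 0.06 (exact permutation p = 0.831). Without Wild-Type 2 it changed sign, to -0.036 (exact permutation p = 0.871).

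After each gene was centred on its genotype mean, St6gal1 and St3gal4 had the highest correlation of the 45 pairs over all 11 libraries. Pearson's r was 0.70 (exact permutation p = 0.00627, adjusted p = 0.282) and Spearman's rho 0.77 (exact permutation p = 0.00563, adjusted p = 0.253) over 11 libraries, and r was 0.76 without the 2 libraries farthest from the median. With single libraries left out, r for this pair ran from 0.61 to 0.82, and it remained the highest pair in 5 of 11 cases. Gne with St6gal1 was highest in 3 of the others, up to 0.77 without Wild-Type 3. St3gal1 with St3gal3 was highest without Knockout 3 and without Wild-Type 1, and St3gal3 with St3gal6 without Wild-Type 4. Of the 45 pairs, 0 passed the adjustment and 3 had an unadjusted p under 0.05. The r values ran from -0.61 to 0.70 with a median of 0.02, and 24 were positive, so that pairs varying together and pairs varying oppositely were about equally common. No batch is named in the labels, so no value within batches could be given.

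The rest of the pathway was read from lists of related genes. Among 13 tested genes of sialic acid synthesis, modification and recycling, 5 were higher and 8 lower in Knockout, 0 were called by edgeR and 1 had an unadjusted p under 0.05, with a median log2 fold change of -0.04. Nans, which makes phosphorylated sialic acid, was the most abundant at 66.3 TPM, and was at 143.5 ± 16.6 CPM in Knockout (SD, n = 6) against 158.0 ± 11.01 in Wild-Type (SD, n = 5). Next by level were Ctsa, a lysosomal protein that protects the sialidase Neu1, at 27.4 TPM and Neu1 itself at 23.3 TPM. Neu2, the cytosolic sialidase, had the smallest p, at 0.834 ± 0.241 CPM (SD, n = 6) and 1.35 ± 0.435 (SD, n = 5), which gave a log2 fold change of -0.69 (SE 0.27, adjusted p = 0.346 by edgeR). Cmah, which hydroxylates CMP-sialic acid, was at 0.308 ± 0.209 and 0.767 ± 0.709 CPM, a log2 fold change of -1.23 (SE 0.63, adjusted p = 0.453 by edgeR). B cells express Cmah, and their markers were highest in Wild-Type; the part of B cell RNA in this value was not tested. Renbp was at 22.0 and 24.7 CPM, and Neu4 had no read in any library.

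UDP-GlcNAc, the sugar nucleotide that Gne uses, is made through a pathway for which 6 genes were listed and tested, among them Amdhd2, which works against the supply by deacetylating GlcNAc phosphate. They were 3 higher and 3 lower, with 0 called by edgeR, 1 with an unadjusted p under 0.05 and a median of 0.01. That gene was Pgm3, which rearranges GlcNAc phosphate, at 6.14 ± 0.536 CPM in Knockout (SD, n = 6) against 8.39 ± 2.19 in Wild-Type (SD, n = 5) (log2 fold change -0.45, SE 0.15, adjusted p = 0.310 by edgeR). Gfpt1, which begins the pathway, was at 10.6 and 9.50 CPM and Uap1, which ends it, at 31.3 and 33.8 CPM. Gnpnat1 was at 3.86 and 3.96 CPM and Amdhd2 at 10.1 and 9.66 CPM.

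Of 13 other sialyltransferases, 5 were tested, 2 higher and 3 lower, with 0 called by edgeR, 1 with an unadjusted p under 0.05 and a median of -0.04. The genes St6gal2 and St8sia3 had no read. St6galnac2, which sialylates the GalNAc of O-glycans, stood at 41.5 TPM, a mean level above that of St6gal1 and of every St3gal gene. It was at 86.2 ± 30.2 CPM in Knockout (SD, n = 6) against 119.6 ± 26.2 in Wild-Type (SD, n = 5), which gave a log2 fold change of -0.47 (SE 0.24, adjusted p = 0.444 by edgeR). Its symbol belongs to 2 gene identifiers, and the one with more reads was used. St6galnac6, which acts on glycolipids, was at 17.0 ± 2.46 and 12.1 ± 2.67 CPM (log2 fold change 0.48, SE 0.14, adjusted p = 0.270 by edgeR), and St6galnac3 at 3.39 and 3.99 CPM.

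Genes that build the acceptors of sialic acid were 3 higher and 7 lower among 10 tested, with 0 called by edgeR, 0 with an unadjusted p under 0.05 and a median of -0.09. Lalba, the milk protein that turns B4galt1 into lactose synthase, was at 7297 ± 437.3 CPM in Knockout (SD, n = 6) against 8055 ± 672.1 in Wild-Type (SD, n = 5). B4galt1 was at 202.5 ± 53.8 and 257.8 ± 55.3 CPM, a log2 fold change of -0.35 (SE 0.19, adjusted p = 0.480 by edgeR). B4galt3 spanned 8.89 to 17.4 CPM in Knockout, against 12.6 to 15.3 in Wild-Type. B4galt6, which makes lactosylceramide, was at 12.9 and 9.29 CPM, and C1galt1, which builds the O-glycan core that St3gal1 uses, was at 6.14 and 5.08 CPM.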

How the data were processed

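The 11 libraries are strand-specific, per the labels' protocols. The authors deposited a Salmon table per library (Salmon 1.3.0, DESeq2 1.28.1 and GRCm38.p6 per the submitters' processing notes; index and options not given in the sources used here). Per the file headers, these deposited tables hold each transcript's effective length, TPM and estimated count of reads. Of transcripts with an annotated coding sequence, 99.5% had a listed length within 3 bases of it. The authors' gene table holds values that its name calls DESeq2-normalized, a signal that is read here only on that scale. Of 58204 transcripts, 57452 matched GENCODE M21, and the 752 others carried at most 0.265% of reads.

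Counts were added up by gene, rounded to whole numbers, filtered with filterByExpr (at most 0.0698% of reads removed), and tested in R 4.3.3 with edgeR 4.0.16 (TMM, robust quasi-likelihood F test, genotype as the only term, Benjamini-Hochberg adjustment over 12716 genes, threshold 0.05). The common biological coefficient of variation was 24.1%. CPM are after TMM scaling, and TPM are as deposited. Exact permutation tests over libraries were enumerated in full in Python 3.11.15 on absolute differences, and their smallest two-sided p for 6 against 5 is 0.00216.

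The 10 genes and the lists were chosen with earlier results of these data known. Named were the 10, Tsc1, from each pathway list the 3 tested genes with the smallest p and the 3 with the highest TPM, and the 3 genes most like St6gal1 and St3gal4. Libraries of the same replicate number did not vary together (correlations of deviations between -0.22 and 0.19), so no pairing was used. Alternatives were DESeq2 1.42.0, limma 3.58.1 on voom weights and on the authors' values (log2(value + 1)), other scalings and filters, length offsets, milk genes left out and each library left out. Chosen after seeing the data were length offsets without transcripts under 300 bases and the removal of the 2 libraries with over 50 CPM of B cell markers.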

Additional observations from a re-analysis of the deposited data

Results flagged for a closer look

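Of 36 sets of values checked for a library far from the rest of its group, 3 held one, where chance gives about 1.8. All 3 are shares of reads on a gene's leading transcript. For Cmas the share in Wild-Type 3 was 98.4%, below the 99.96 to 100% of the other Wild-Type libraries. For St3gal6 the share in Knockout 6 was 96.2%, below the 98.5 to 98.9% of the other Knockout libraries, and this is the library with 4.00 reads on the short transcripts. For St3gal6 the share in Wild-Type 2 was 97.3%, where the other 4 Wild-Type libraries were at 100%, and this is the Wild-Type library with reads on the short transcripts.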

How the results depend on the processing

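The count of the 10 genes called was 0 under every alternative run, and each kept its direction. The count over all genes, 7 with edgeR, was 146 with DESeq2, 3 without Wild-Type 2 and Wild-Type 5, and 0 to 28 with single libraries left out. With replicate number as a block, Knockout 6 having no partner, it was 0, with 0 of the 10 genes called, and the St6gal1 to St3gal4 ratio differed by 0.18. This ratio of St6gal1 to St3gal4 differed by -0.036 without Wild-Type 2, a change of sign, and by 0.30 without Wild-Type 4, the extremes with single libraries left out. The steps between neighbours that differed were 7, then 6 to 7 with single libraries left out and 4 with leading transcripts alone. The number of transcript shares that passed was 0 to 1 with single libraries left out. Unadjusted p fell under 0.05 for St3gal6 with length offsets and on the authors' values, for Gne and St6gal1 without Knockout 5, for St3gal6 without Knockout 6, and for St3gal4, St3gal1 and St3gal6 without Wild-Type 4. Other log2 fold changes that moved by over 1.5 times included -0.17 for Gne without Knockout 2, 0.088 for Slc35a1 without Wild-Type 4, 0.11 to 0.31 for St3gal2 (without Knockout 1 and Wild-Type 3) and, for St3gal3, -0.036 without Wild-Type 2, -0.044 without Knockout 3 and -0.049 without Knockout 6. The cause of these shifts was not tested. Depth limits St3gal2, St3gal5, St3gal6 and St3gal4 most, with as few as 24, 65, 60 and 76 reads in a library.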

Other observations

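The genes whose levels tracked St6gal1 most closely over the 11 libraries, each centred on its genotype mean, were the kinase gene Akt1 (Pearson's r 0.96), the basement membrane gene Nid2 (0.96) and Odc1 (0.96), the first enzyme of polyamine synthesis. Those closest to St3gal4 were Sra1 (0.96), the predicted gene Gm21962 (0.92) and Atp6v1c2 (0.92), which encodes a subunit of the vacuolar proton pump. They are the highest of 12715 genes compared with each, and the libraries share depth, composition and scaling, so these values are descriptions without a test.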
